A study of Rattus norvegicus with 12 samples.

Results

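Hypothalamic transcript levels were compared on gestational day 20 in male fetuses of Wistar rats, between 3 arrays of TCDD-exposed fetuses and 3 control arrays. TCDD (2,3,7,8-tetrachlorodibenzo-p-dioxin) is the prototype dioxin, and the dams received it by mouth in corn oil on gestational day 15. The series text gives the dose as 1 µg/kg and the sample labels as 1 mg/kg, and the labels describe the other group only as control. The control arrays carry the numbers 1, 3 and 5 and the TCDD arrays the numbers 1, 3 and 4. These 6 of the study's 12 arrays were chosen by their titles and described over 11363 of the 22523 probes, those detected (p below 0.05) on 3 or more of the 6. The platform is a 1-colour Illumina RatRef-12 BeadChip. A named gene was given by 8291 of these probes, for 8135 genes, and 9978 probes were detected on all 6 arrays. The same probes in 6 pituitary arrays of the same study, 3 per treatment, served to test whether the TCDD difference was unequal between the tissues. Whether the arrays within a group represent different dams or litters is not stated in the labels, so p-values here capture array-to-array spread that may be technical. The number of arrays limits the precision. Levels are normalized intensities on the log2 scale, and the level of one probe is not set against that of another.

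Dioxins act through AhR (aryl hydrocarbon receptor), which on binding a ligand pairs with ARNT in the nucleus and binds a short DNA core, GCGTG, near target genes. Targets include the xenobiotic-metabolizing enzymes of the cytochrome P450 family and the feedback repressor Ahrr. The hypothalamus holds the neurons that drive the pituitary: Gnrh1 neurons control the gonadotropins, and Crh, Trh, Ghrh, Sst and dopamine neurons control the other anterior pituitary hormones. The series text places the study in the context of fetal gonadotropin subunits, for which the hypothalamus is the upstream tissue.

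The promoters of Cyp1b1 and Nqo1 are shown because these are the AhR target genes whose control and TCDD arrays did not overlap in the hypothalamus. Each window runs from 250 bases before to 50 bases after the RefSeq start on the GRCr8 build, on the gene's strand, and capitals mark GCGTG or its reverse complement CACGC.
Cyp1b1, chr6:21094315-21094614, plus strand: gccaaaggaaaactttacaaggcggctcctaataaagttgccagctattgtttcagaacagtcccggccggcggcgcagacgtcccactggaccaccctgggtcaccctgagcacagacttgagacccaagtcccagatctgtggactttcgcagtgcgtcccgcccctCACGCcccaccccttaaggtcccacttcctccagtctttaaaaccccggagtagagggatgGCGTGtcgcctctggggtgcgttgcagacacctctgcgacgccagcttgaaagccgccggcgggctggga
Nqo1, chr19:52220218-52220517, minus strand: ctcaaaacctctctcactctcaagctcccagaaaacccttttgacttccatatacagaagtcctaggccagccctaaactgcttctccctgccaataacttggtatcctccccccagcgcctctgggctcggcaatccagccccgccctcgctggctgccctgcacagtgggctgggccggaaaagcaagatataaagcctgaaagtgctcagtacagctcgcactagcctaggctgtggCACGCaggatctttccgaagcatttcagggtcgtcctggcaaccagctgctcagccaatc
The Cyp1b1 window holds 2 cores, whose first bases lie at -81 and -20 from the start, and the Nqo1 window holds 1, at -10. The core is short and frequent: of 27457 promoter windows of the same length in the table, 31.10% hold it on either strand, and of the 6771 windows matched to genes detected in the hypothalamus 50.04% do. The share was 51.39% of 502 genes whose TCDD arrays all lay above the controls and 47.29% of 480 genes whose TCDD arrays all lay below them. A match is a description of these letters only.

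The 6 arrays were alike in signal. Raw median intensity ran from 92.5 to 120.8 and 47.38% to 51.32% of all probes were detected on an array. Across detected probes, which are no independent replicates, log2 levels correlated at 0.9879 to 0.9912 for the 6 pairs within a group and 0.9860 to 0.9928 for the 9 pairs between groups. The highest value joined control array 5 to TCDD array 1, so the treatment did not divide the arrays as a whole. Genes that mark the hypothalamus (Pmch, Hcrt, Avp, Oxt, Agrp and Nkx2-1) were detected on all 6 arrays. Of 21 hypothalamic patterning transcription factors with a named probe, 17 were detected, and Sim1, Hmx3, Neurog3 and Tbx3 were not. Of 12 anterior and intermediate pituitary markers with a named probe, 3 were detected, and Prl, Fshb, Cga, Pou1f1 and Gnrhr were not. Markers of cortex, striatum and thalamus were detected for 9 of 10 genes on the array, whereas 10 of 12 midbrain and hindbrain markers were not.

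Only 3 of the 11363 probes (0.0264%) passed an adjusted p of 0.05 (limma, Benjamini-Hochberg over all 13018 tested probes), and none of the 3 has a gene symbol in the annotation. Probe ILMN_1357002 fell, from 6.97, 6.96 and 6.92 in the controls to 5.66, 6.11 and 5.71 with TCDD, a log2 fold change of -1.12 ± 0.13 (SE, n = 3 per group; limma adjusted p = 0.0195). It was detected on 3 control and 2 TCDD arrays. Probe ILMN_1371022 fell from 6.43, 6.77 and 6.74 to 5.95, 5.66 and 5.78, by 0.85 on the log2 scale (limma adjusted p = 0.0337). Probe ILMN_1364999 rose from 6.36, 6.33 and 6.19 to 6.86, 6.89 and 6.99, a log2 fold change of 0.62 (limma adjusted p = 0.0405). The groups did not overlap for any of the 3. The count rested on single arrays: it was 0 without control array 3 or without TCDD array 4, 1 without control array 1 or TCDD array 3, and 16 without control array 5. It was also 0 when the hypothalamus arrays were normalized and fitted alone.

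At an unadjusted p below 0.05, 648 probes (5.70%) were higher with TCDD and 695 (6.12%) were lower. The quartiles of the log2 fold change were -0.13 and 0.12, with a median of 0.0014, and 10 probes differed by more than 1 log2 unit. Among genes with a symbol, 586 (7.20% of 8135) had all 3 TCDD arrays above all 3 controls and 577 (7.09%) had all below. These shares are the background against which the gene groups are counted. No gene with a symbol passed the adjusted test, and the smallest adjusted p among them, 0.111, belonged to Cyp1b1.

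**Figure D1:**
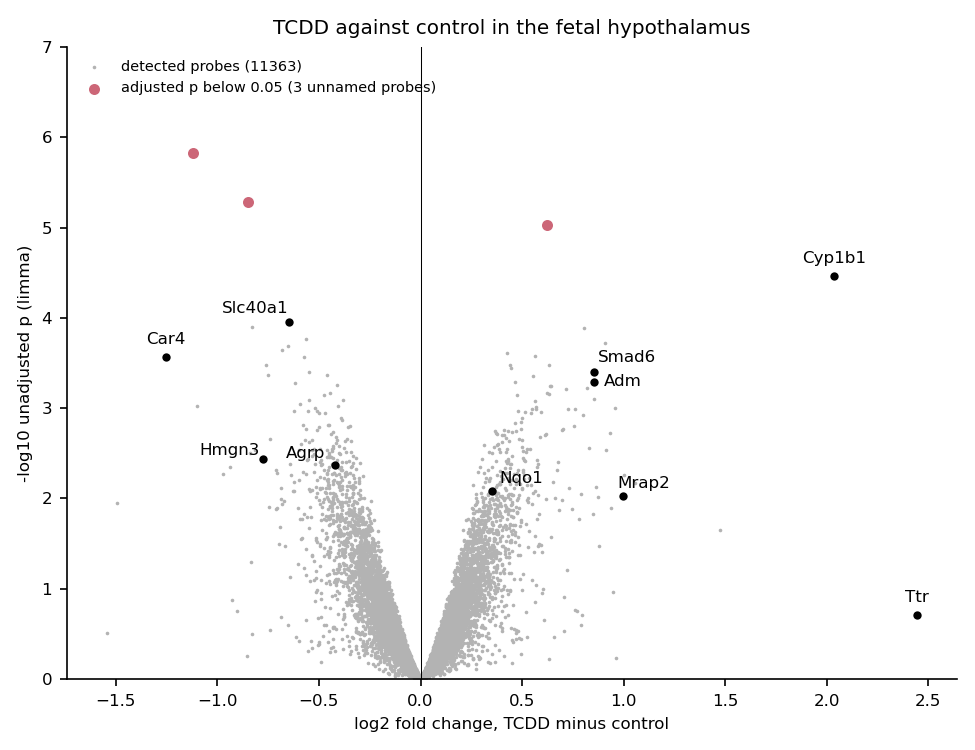
Log2 fold change (TCDD minus control, x) against -log10 of the unadjusted limma p (y) for the 11363 probes detected in the fetal hypothalamus. Red points are the 3 probes with an adjusted p below 0.05, all unnamed. Cyp1b1 at 2.04 stands apart from the cloud with an adjusted p of 0.111, and Ttr at 2.44 has a large difference with a large error.

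Cyp1b1, a cytochrome P450 that oxidizes xenobiotics and estrogens and is a direct AhR target, had the largest difference of any gene whose groups did not overlap. Its levels were 7.15, 7.57 and 5.95 in the controls and 8.71, 9.29 and 8.79 with TCDD. All 3 TCDD arrays lay more than 1 log2 unit above the highest control. This is a log2 fold change of 2.04 ± 0.32, or 4.11-fold, with a limma adjusted p of 0.111 that does not pass. Control array 5 was the lowest control and widened the spread: without it the log2 fold change was 1.56 and the limma adjusted p was 0.0290, and over all alternatives the adjusted p ran from 0.0290 to 0.513.

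Nqo1, a quinone reductase under the control of both AhR and NRF2, had levels of 9.83, 9.63 and 9.57 in the controls and 9.84, 10.16 and 10.08 with TCDD. The groups were apart by a narrow margin, between control array 1 and TCDD array 1. Its log2 fold change was 0.35 ± 0.11 with a limma adjusted p of 0.317. Nfe2l2, which encodes NRF2, had a log2 fold change of 0.28 and Slc7a5, an amino acid transporter named here although it is outside the naming rule, one of 0.07, and for both the groups overlapped. These 4 were the detected genes among 11 AhR targets with a named probe, and the median of their log2 fold changes was 0.32 against 0.0003 for all genes with a symbol. None of the 4 passed the test.

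The classical marker of AhR activation, Cyp1a1, was not detected on any hypothalamus array: its probe read 4.92, 4.72 and 4.84 in the controls and 4.97, 4.86 and 5.04 with TCDD. The repressor Ahrr was not detected either, nor were Cyp1a2, Ugt1a6, Aldh3a1, Gsta2 and Cyp2s1. Tiparp has no named probe on the array. The receptor itself was detected on all 6 arrays, with Ahr at 6.52, 6.21 and 6.73 in the controls and 6.05, 6.59 and 6.42 with TCDD. These overlapped, with a log2 fold change of -0.13 ± 0.15. The probe for its partner Arnt was not detected.

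**Figure D2:**
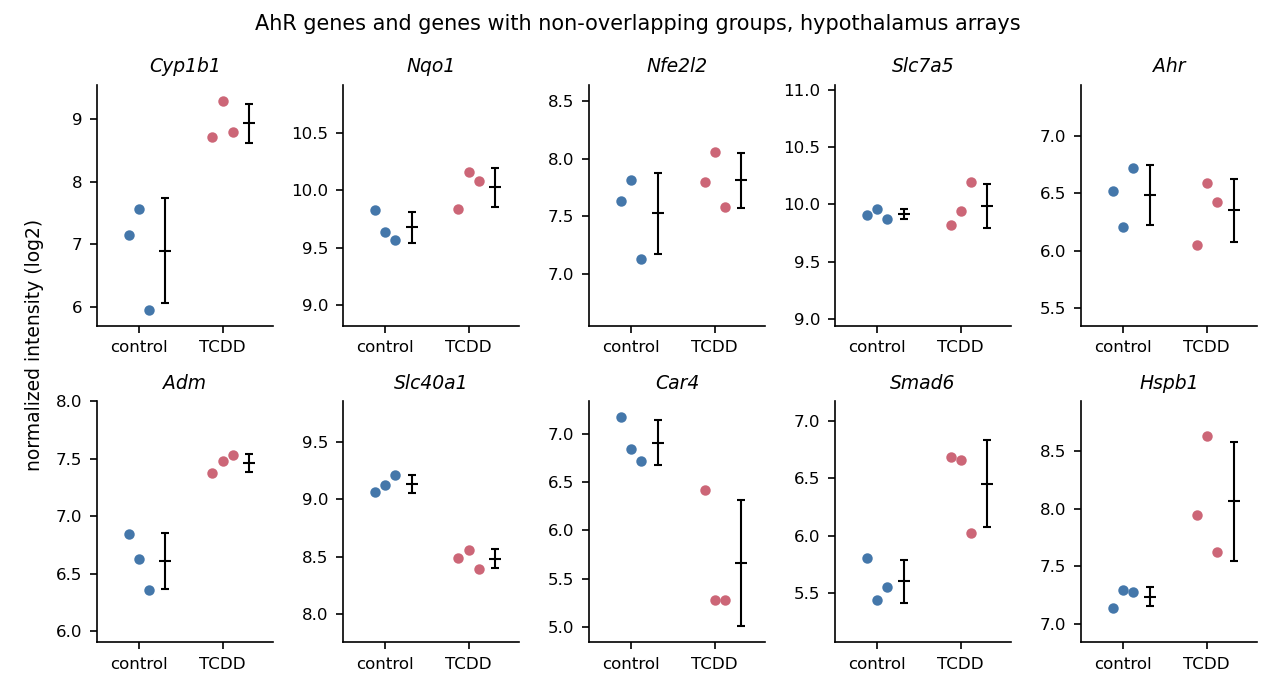
Normalized log2 intensity of 10 genes on each of the 3 control (blue) and 3 TCDD (red) hypothalamus arrays, with the group mean and SD in black; each panel has its own axis. The TCDD points of Cyp1b1, Adm, Smad6 and Hspb1 lie above the controls and those of Slc40a1 and Car4 below, while Nfe2l2, Slc7a5 and Ahr overlap.

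Among genes with a symbol, an unadjusted p below 0.05 and groups apart, the 10 with the largest positive log2 fold change were Cyp1b1, Mrap2, Nyap1, Smad6, Adm, Tmem243, Hspb1, Slc16a3, Zic1 and Tm4sf1. None passed the adjusted test. Adm encodes adrenomedullin, a vasodilator peptide that hypoxia induces. Its levels were 6.85, 6.63 and 6.36 in the controls and 7.38, 7.49 and 7.53 with TCDD, a log2 fold change of 0.85 ± 0.18 (limma adjusted p = 0.244). Smad6, an inhibitory Smad of BMP signalling, differed by the same amount: 5.81, 5.44 and 5.56 against 6.69, 6.66 and 6.02, with detection on 1 control array and 3 TCDD arrays.

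Slc16a3, the lactate exporter MCT4, was at 7.89, 7.39 and 7.71 in the controls and 8.10, 8.89 and 8.47 with TCDD, a log2 fold change of 0.82. Hspb1, a small heat shock protein, stood at 7.14, 7.29 and 7.28 against 7.94, 8.64 and 7.62. Its controls were tight and its TCDD arrays spread over a log2 unit. For Zic1, a zinc-finger factor of the dorsal and septal forebrain, the controls read 7.23, 6.96 and 7.6 and the TCDD arrays 8.28, 7.96 and 7.95. Mrap2, the melanocortin receptor accessory protein, had a log2 fold change of 0.99 that came mostly from TCDD array 1, at 7.46 beside 6.2 and 5.82 on the other TCDD arrays. The remaining genes of this group, Nyap1, Tmem243 and Tm4sf1, had log2 fold changes of 0.86, 0.85 and 0.79.

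The 10 with the largest negative log2 fold change were Car4, Hmgn3, Itgb1bp2, Rock1, Serpinb6b, Aloxe3, Slc40a1, Gdap1, Il18 and Syce1, and none of them passed either. Car4, a membrane-bound carbonic anhydrase of brain capillaries, read 7.18, 6.84 and 6.72 in the controls and 6.42, 5.28 and 5.28 with TCDD, and was detected on 1 TCDD array. The log2 fold change was -1.25 ± 0.25 with a limma adjusted p of 0.235. Without TCDD array 1, the TCDD array nearest the controls, it was -1.65 with a limma adjusted p of 0.00183, in a range over all alternatives of 0.00183 to 0.516. Leaving out the array nearest the controls enlarges a difference by construction, so the smaller p is no added support. Of the 6 detected endothelial markers, 4 had positive values, and the list was split: Cldn5, a tight-junction protein, had 0.28 with all TCDD arrays above the controls, and Tie1, an endothelial receptor kinase, -0.17 with all of them below. Neither passed.

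Slc40a1 encodes ferroportin, the cellular iron exporter. Its levels were 9.06, 9.13 and 9.21 in the controls and 8.49, 8.56 and 8.40 with TCDD, so that both groups were tight and well apart. The log2 fold change was -0.65 ± 0.12 (limma adjusted p = 0.235), and over all alternatives it stayed between -0.80 and -0.37. Il18, an interleukin of the IL-1 family, was at 7.35, 7.25 and 7.08 against 6.55, 6.86 and 6.35. Rock1, a protein kinase, read 6.37, 6.86 and 6.67 in the controls and 6.0, 5.88 and 5.78 with TCDD. The log2 fold changes of the others were -0.78 for Hmgn3, a nucleosome-binding protein, -0.76 for Itgb1bp2, -0.68 for Serpinb6b, -0.65 for Aloxe3, -0.64 for Gdap1 and -0.62 for Syce1.

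Among the large differences, those of Ttr and Mrpl18 came from a single array. Ttr, the thyroxine and retinol carrier made by the choroid plexus, read 5.21, 5.14 and 5.84 in the controls and 6.49, 11.80 and 5.23 with TCDD, so the log2 fold change of 2.44 rested on TCDD array 3 and did not pass (limma adjusted p = 0.658). The choroid plexus markers Kl, Folr1, Kcnj13, Aqp1 and Clic6 were not detected on enough arrays to be counted. The summed intensity of the 5 detected markers was 1267 to 1590 in the controls and 1195 to 5385 with TCDD. Mrpl18, a mitochondrial ribosomal protein named after its values were seen, was at 5.20 on TCDD array 1 and between 9.18 and 10.86 on the other arrays. Actg2, a smooth muscle actin also named after its values were seen, was high on TCDD arrays 1 and 3: it was at 7.26 on control array 3 and 5.64 and 5.61 on the other controls, against 8.31, 8.42 and 6.2 with TCDD.

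The releasing and neurohypophysial hormone genes showed no called difference in any member, with 0 of 13 detected genes past the test and a median log2 fold change of 0.03. Crh, the corticotropin-releasing hormone, read 7.94, 7.62 and 7.68 in the controls and 7.94, 7.32 and 8.53 with TCDD, the widest spread of these genes coming from the TCDD side. Trh, the thyrotropin-releasing hormone, was at 10.74, 10.50 and 10.15 against 10.46, 10.15 and 10.62. Ghrh, the growth-hormone-releasing hormone, was at 8.93, 8.61 and 8.36 against 8.34, 8.56 and 8.77. In all 3 the groups overlapped, with log2 fold changes of 0.18 ± 0.23, -0.05 ± 0.23 and -0.07 ± 0.17. Sst (somatostatin), Avp (vasopressin) and Oxt (oxytocin) had log2 fold changes of 0.12 ± 0.28, 0.03 ± 0.34 and 0.16 ± 0.14. Th, the rate-limiting enzyme of dopamine synthesis, was at 10.02, 10.10 and 11.002 in the controls and 10.28, 10.28 and 10.47 with TCDD, with control array 5 high.

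For the reproductive axis, Gnrh1 encodes the peptide that drives gonadotropin release. Its levels were 8.03, 8.04 and 7.48 in the controls and 7.97, 6.99 and 7.87 with TCDD. The log2 fold change of -0.24 ± 0.22 came from TCDD array 3, and without that array it was 0.07. Tac3 (neurokinin B) and Pdyn (dynorphin), which kisspeptin neurons co-express, had log2 fold changes of -0.09 ± 0.33 and -0.07 ± 0.13. The kisspeptin receptor Kiss1r was at 8.46, 8.49 and 8.97 against 8.89, 9.14 and 8.77, a log2 fold change of 0.29 with overlapping groups. Kiss1 itself was not detected, nor were Esr1 and Pgr. Of the 8 detected reproductive neuropeptides and receptors, 3 had positive and 5 negative values, none with groups apart.

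**Figure D3:**
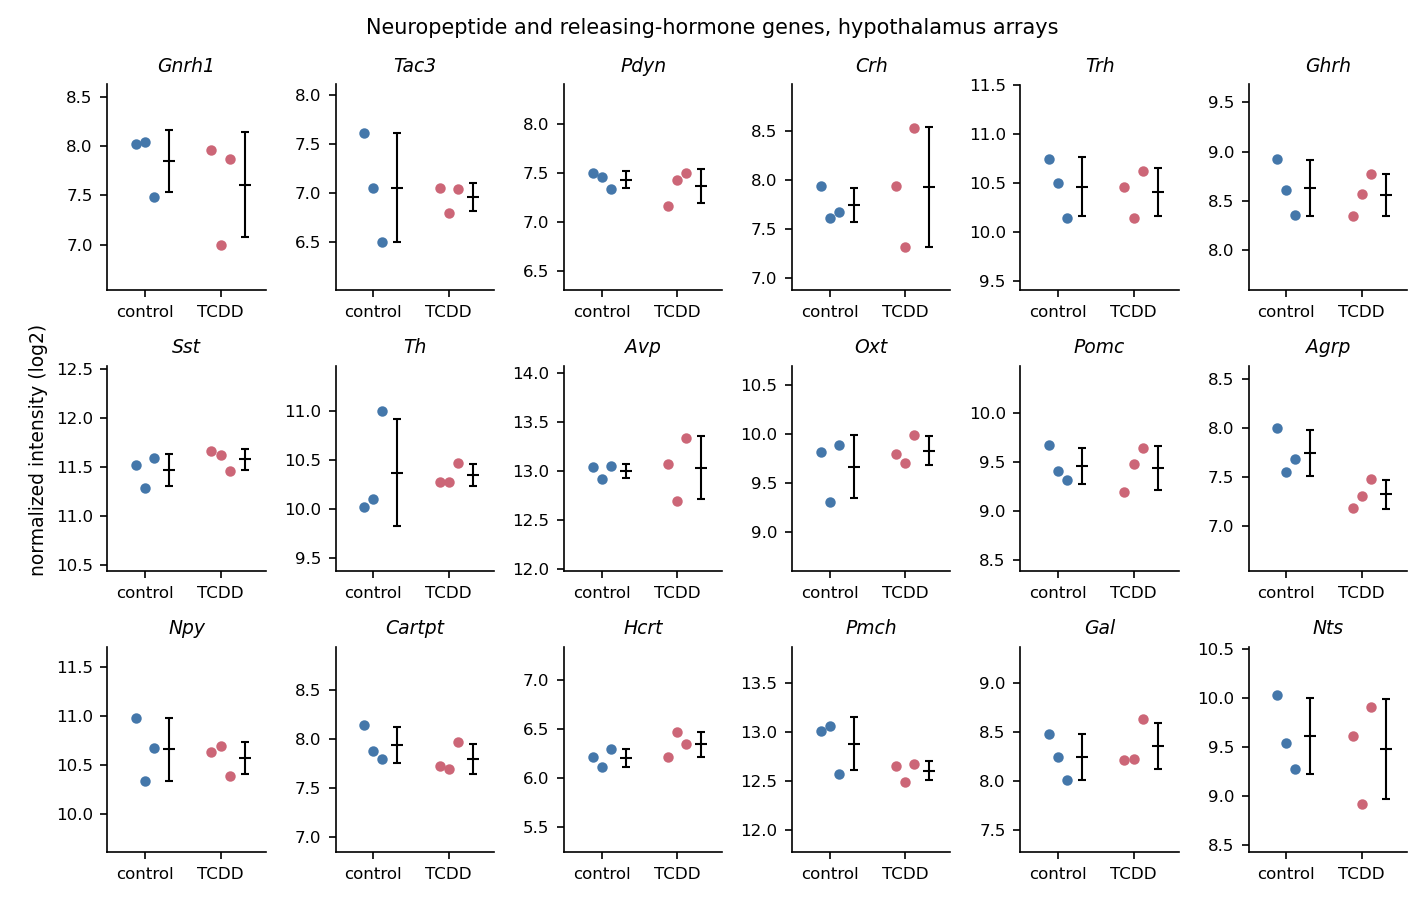
Normalized log2 intensity of 18 neuropeptide, releasing-hormone and dopamine genes on each of the 3 control (blue) and 3 TCDD (red) hypothalamus arrays, with the group mean and SD in black; each panel has its own axis of at least 2 log2 units. Agrp is the gene whose TCDD points all lie below the controls, and the others overlap.

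Among the feeding and arousal peptides, Agrp was the member with the smallest p. It encodes agouti-related peptide, the melanocortin antagonist of the arcuate nucleus that promotes feeding. Its levels were 8.0, 7.56 and 7.68 in the controls and 7.19, 7.31 and 7.48 with TCDD, all 3 TCDD arrays lying below the controls. The log2 fold change was -0.42 ± 0.12 with a limma adjusted p of 0.288. Npy, which the same neurons make, was at 10.98, 10.33 and 10.67 against 10.63, 10.69 and 10.39, with overlap and a log2 fold change of -0.09. Pomc, the precursor of the opposing melanocortins, had -0.02 ± 0.13. Pmch (melanin-concentrating hormone) read 13.01, 13.06 and 12.57 in the controls and 12.65, 12.49 and 12.67 with TCDD, a log2 fold change of -0.27, and Hcrt (orexin) had 0.14, Cartpt -0.14, Gal 0.11 and Nts -0.14. Of 16 detected members 12 had negative values, with a median of -0.07. In 2 of the 16 all TCDD arrays lay below the controls, against 7.09% of all genes. None passed the test.

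Transcription factors that pattern the hypothalamus had positive values for 12 of 17 detected genes, with a median log2 fold change of 0.17. Of the 17, 1 was apart above, against 7.20% of all genes, and 0 passed. Without TCDD array 4 the median was -0.01, so the direction depended on that array. Six3, which sets up the anterior forebrain and eye field, read 6.90, 6.58 and 7.44 against 7.34, 7.39 and 7.80, with a log2 fold change of 0.54. Rax, required for hypothalamic and retinal progenitors and kept by tanycytes, was at 6.63, 6.73 and 6.53 in the controls and 6.95, 6.99 and 7.33 with TCDD, a log2 fold change of 0.46 with the groups apart. In the list of ependymal cell and tanycyte markers, which holds Rax, 7 of 9 detected genes had negative values and 2 positive. Their median was -0.17, and 0 passed. Vax1 had a log2 fold change of 0.42, with overlap. Nkx2-1, the ventral hypothalamic determinant, had a log2 fold change near 0, with levels of 7.56, 7.52 and 7.30 against 7.35, 7.42 and 7.59.

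Markers of neural progenitors had a median of 0.21 over 10 detected genes, 6 positive and 4 negative, ranging from -0.34 to 0.53. Of the 10, 2 were apart above and 2 apart below, against 7.20% and 7.09% of all genes. The 3 members named next are those of smallest p, and all 3 are positive. Hes1, a Notch effector that keeps progenitors undifferentiated, was at 7.38, 7.41 and 7.81 in the controls and 7.93, 7.84 and 8.43 with TCDD, a log2 fold change of 0.53. Its relative Hes5 had 0.32, with overlap. Sox2, the progenitor transcription factor, read 9.95, 9.84 and 10.06 against 10.36, 10.29 and 10.26, a log2 fold change of 0.35. The summed intensity of the list was 41335 to 43245 in the controls and 37894 to 41423 with TCDD, so the sum, which the brightest genes dominate, and the median differed in sign. In bulk tissue, fewer cells of a type and less RNA per cell cannot be told apart. The 22 detected cell cycle genes had a median of 0.09, with Cdc20, an activator of the anaphase-promoting complex, at 0.30, Plk1 at 0.30 and Mcm5 at 0.26. Removing control array 5 or TCDD array 1 turned the sign of that median.

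Most genes of neurotransmission had negative values. Of 12 detected GABA, glutamate and monoamine genes, 10 had negative values, with a median log2 fold change of -0.10, which was 0.02 without control array 5. Gad2, a GABA-synthesizing enzyme, read 7.78, 7.66 and 7.63 in the controls and 7.45, 7.15 and 7.30 with TCDD, all below the controls, for a log2 fold change of -0.39 ± 0.09 (limma adjusted p = 0.263). Maoa, a monoamine oxidase, had -0.33 and Hdc, which makes histamine, -0.15. Among 16 neurotransmitter receptor subunits 11 were negative, with a median of -0.11. Gria3, an AMPA receptor subunit, was at 7.38, 7.24 and 7.30 against 7.03 on each of the 3 TCDD arrays, a log2 fold change of -0.28. The dopamine receptors had positive values, with Drd1 at 0.30 and groups apart and Drd2 at 0.17. Potassium channels had a median of -0.08 over 13 genes, with Kcnc1, a fast-spiking channel, at -0.30 and groups apart. Neuron markers had a median of 0.03, with Map2 at 0.49, Snap25 at -0.20 and groups apart for both. None of these genes passed.

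Markers of neighbouring forebrain were measured beside these. Adora2a, the adenosine receptor of striatal projection neurons, read 8.83, 8.77 and 8.91 in the controls and 9.66, 9.44 and 9.28 with TCDD, a log2 fold change of 0.62 ± 0.14 (limma adjusted p = 0.244). Gbx2, a thalamic factor, was at 8.04, 7.04 and 8.23 against 8.19, 8.63 and 7.73, with overlap. Of the 9 detected markers of cortex, striatum and thalamus 6 had positive values, and their summed intensity was 3100 to 3702 in the controls and 3217 to 4113 with TCDD. The part of this tissue in the differences of Drd1, Drd2 and Zic1 was not tested.

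Hormone receptors and enzymes were divided in sign, with 6 positive and 6 negative values among 12 detected genes and 0 called. Of the 12, 0 were apart above and 3 apart below, against 7.20% and 7.09% of all genes. Cyp19a1, the aromatase that makes estradiol in the perinatal hypothalamus, was at 6.52, 5.96 and 6.01 in the controls and 6.61, 6.36 and 6.51 with TCDD, a log2 fold change of 0.33 ± 0.14 with overlap at control array 1. Dio3, which inactivates thyroid hormone, read 5.32, 5.78 and 5.34 against 5.91, 5.56 and 6.27, with detection on 1 control and 3 TCDD arrays. Nr0b1 (DAX1), a nuclear receptor of the steroidogenic axis, had a log2 fold change of -0.29 with the groups apart. Among 11 detected retinoid genes, Rxrg, a retinoid X receptor, was at 10.53, 10.65 and 10.33 against 10.93, 10.75 and 10.66, a log2 fold change of 0.27 with the groups apart. Aldh1a1, a retinaldehyde dehydrogenase, had -0.49 with overlap.

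Hypoxia and glycolysis genes held 5 of 13 detected members whose TCDD arrays all lay above the controls, against 7.20% of all genes, and none below. The median log2 fold change was 0.13, and 0 members passed the adjusted test. Besides Adm, Ddit4, a stress-induced inhibitor of mTORC1, read 10.04, 10.32 and 10.38 in the controls and 10.80, 10.83 and 10.62 with TCDD, a log2 fold change of 0.51 (limma adjusted p = 0.277). Eno1, a glycolytic enolase, was at 9.57, 9.55 and 9.61 against 9.62, 9.75 and 10.10, apart by a narrow margin, with 0.25. Scaling by the median, which lowered the median of all genes to -0.11, brought the list's median to 0.0066.

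Immediate early genes had 4 of 11 detected members above the controls on every TCDD array, against 7.20% of all genes, and none below. The median was 0.16 and 0 were called. Ier2, a serum-induced gene, read 7.04, 6.88 and 7.16 against 7.55, 7.25 and 7.76, a log2 fold change of 0.49 ± 0.15. Dusp1, a MAP kinase phosphatase, was at 11.03, 10.86 and 10.90 against 11.23, 11.10 and 11.30. Nr4a1, an orphan nuclear receptor of the same early response, had 0.25 and was detected on 2 control and 3 TCDD arrays.

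In iron and haem metabolism, 2 of 13 detected genes were apart above and 2 below, against 7.20% and 7.09% of all genes. The median was 0.11. Alas2, the erythroid enzyme that starts haem synthesis, read 7.57, 7.63 and 7.49 in the controls and 7.97, 8.73 and 8.29 with TCDD, a log2 fold change of 0.76 ± 0.18 (limma adjusted p = 0.244). Hmox2, a haem oxygenase, had -0.23 with the groups apart. Alas2 is also a marker of red cells, and the embryonic globin Hbe1 read 9.46, 8.60 and 8.21 against 9.53, 9.31 and 10.25, a log2 fold change of 0.94 with overlap. The summed intensity of the 9 detected blood markers was 86828 to 101322 in the controls and 92753 to 106995 with TCDD, ranges that overlap. Globin genes are near copies of one another, so their probes may share signal. The part of blood in the Alas2 difference was not tested.

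Oxidative stress genes were divided: 9 of 17 detected NRF2 and glutathione genes were positive, with a median of 0.02. Gpx1, a glutathione peroxidase, was at 10.77, 10.65 and 10.99 against 10.97, 11.33 and 11.28, a log2 fold change of 0.39 with overlap. Gsta4, a glutathione transferase for lipid aldehydes, had -0.56, and Txn1 (thioredoxin) -0.21 with the groups apart. The median for endoplasmic reticulum and heat shock genes was 0.03, with Dnajb9, a chaperone of the unfolded protein response, at -0.40, and Sdf2l1, another, at 0.26. Cholesterol and fatty acid synthesis genes had a median of 0.0010, with Idi1, an isopentenyl isomerase, at -0.40 and its groups apart. Histone and DNA modifying enzymes ranged from -0.27 to 0.02, the lowest being Eed, a Polycomb subunit, at 9.81, 9.94 and 9.85 against 9.68, 9.73 and 9.37. The median was -0.03 for 22 lipoate, pyruvate dehydrogenase and TCA cycle genes, and it was -0.01 for 8 clock genes. None of the members of these lists passed. In the immune list, 8 of 22 genes were detected, with B2m, the light chain of class I molecules, at -0.38.

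**Figure D4:**
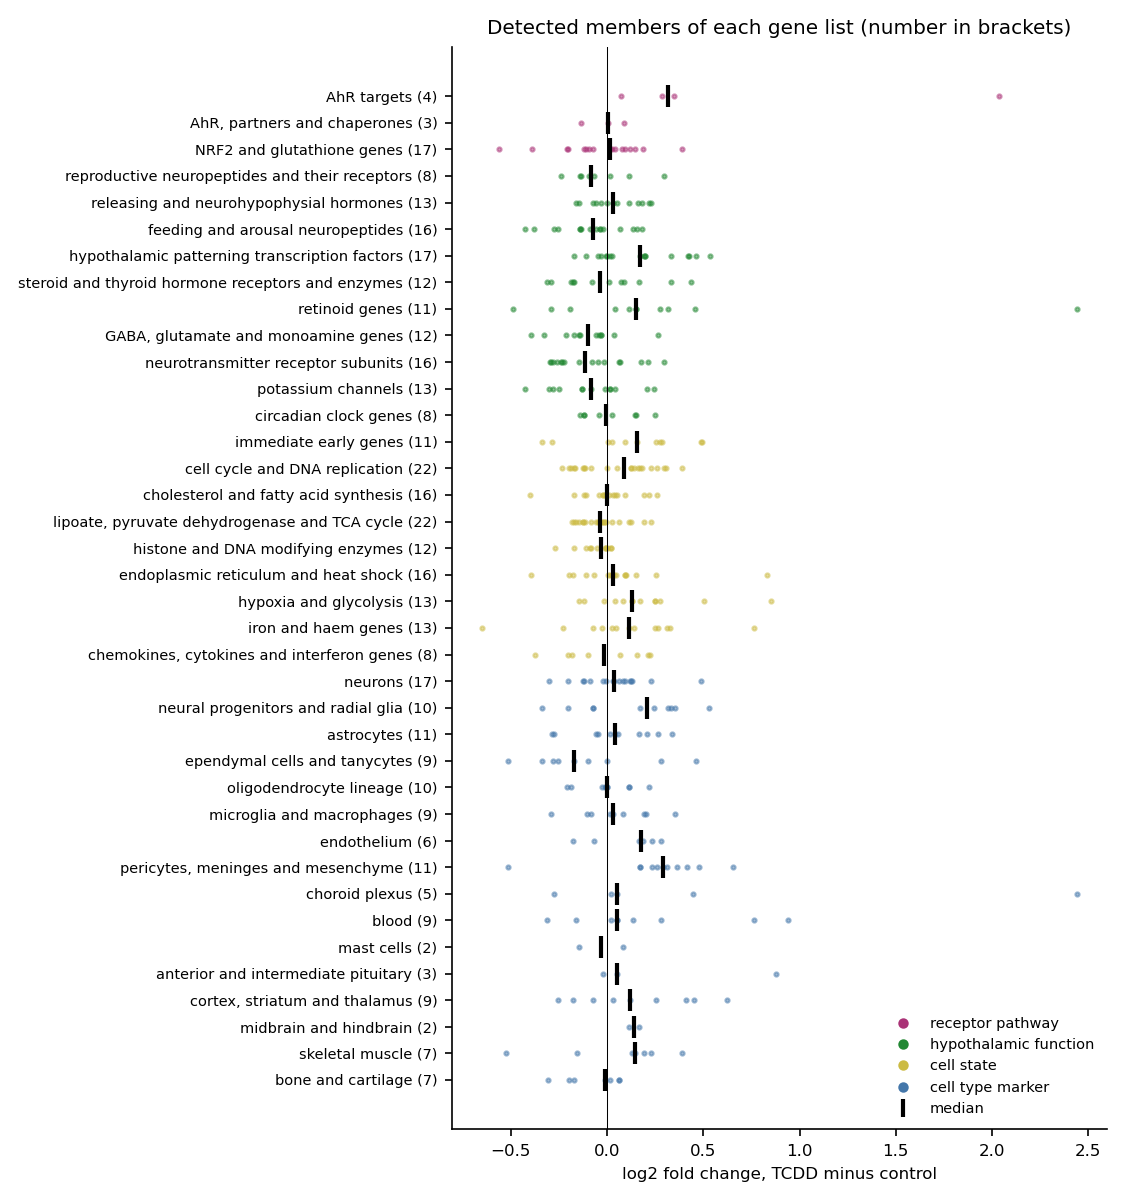
Log2 fold change (TCDD minus control) of each detected member of 38 gene lists (points, coloured by the kind of list) with the list's median (black bar) and the number of detected members in brackets. Most medians lie within 0.2 of zero, and the single points far to the right are Cyp1b1 at 2.04 and Ttr at 2.44.

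Markers of some other cell types varied between arrays of the same group. Pericyte, meningeal and mesenchymal genes had a mean level of 9.17 on control array 3 and 9.10 on TCDD array 3, and between 7.30 and 8.16 on the other 4. Their summed intensity was 5776 to 26631 in the controls and 8881 to 22724 with TCDD, with 10 of 11 values positive, 0 groups apart and a median of 0.29 that changed sign without control array 5 or TCDD array 3. Probes whose level exceeded the average of the other 5 arrays by over 1 log2 unit were also most numerous on these arrays. There were 77 on control array 3 and 56 on TCDD array 3. Microglial genes had a median of 0.03, with C1qb, a complement subunit, at 0.35 and its groups apart. Astrocyte and oligodendrocyte markers had medians of 0.04 and -0.0016, with Fgfr3 at 0.34, Aqp4 and Sparcl1 at -0.28 each and Pdgfra at 0.22. Skeletal muscle genes had a median of 0.14 over 7 genes, with Tnnt3 at 0.39, Myl1 at 0.19 and Myh3 at -0.52. Bone and cartilage genes had -0.01, with Col2a1 at -0.31, and mast cell proteases were not detected.

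Tshb, the thyrotropin subunit of the pituitary, was the pituitary marker that varied. It read 5.59, 5.55 and 4.95 in the controls and 5.09, 6.91 and 6.73 with TCDD, being detected on 1 control and 2 TCDD arrays, with a log2 fold change of 0.88 (limma adjusted p = 0.417). Without TCDD array 1, the lowest TCDD array, it was 1.47 with a limma adjusted p of 0.0335. Leaving out that array enlarges the difference by construction. Over all alternatives the limma adjusted p ran from 0.0335 to 0.753. Lhb was at 6.32, 5.75 and 6.13 against 6.11, 6.37 and 5.88. The summed intensity of the 3 detected pituitary markers was 740 to 945 in the controls and 692 to 967 with TCDD. Most of this sum is Pomc, with mean levels of 9.47 in the controls and 9.45 with TCDD. Pomc is also counted among the hypothalamic feeding peptides, so the sum says little about pituitary tissue. The part of pituitary tissue in the Tshb difference was not tested.

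The TCDD difference was then tested against that in the pituitary of the same study. Of the 11363 probes, 15 (0.132%) had an unequal difference (limma adjusted p below 0.05), 10 more negative and 5 more positive in the hypothalamus, and the split was 16 and 3 with median scaling and 15 and 12 with the authors' processed values. In the pituitary itself 47 of the same probes (0.414%) passed. In the hypothalamus 0 of these passed by the same limma test, against 0.0264% of all 11363 probes. There 10 of the 47 had an unadjusted p below 0.05, against 5.70% of all probes higher and 6.12% lower. The sign was the same in both tissues for 24 of the 47. Across these 47 probes the median size of the log2 fold change was 0.88 in the pituitary, where they were chosen for it, and 0.11 in the hypothalamus. Among the hypothalamus arrays, the count of 15 was 8 without control array 1, 4 without control array 3 and 7 without TCDD array 4.

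The log2 fold change of Cyp1b1 was 1.87 ± 0.32 in the pituitary, beside 2.04 ± 0.32 here (difference 0.17 ± 0.45, limma adjusted p = 0.904). Nqo1 was unequal, at 0.35 ± 0.11 here against 1.69 ± 0.11 in the pituitary (limma adjusted p for the difference = 0.00385). Nqo1 thus had a smaller difference in the hypothalamus, while for Cyp1b1 no inequality passed the test.

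Myh7, a slow myosin heavy chain, had the smallest p for the difference between tissues. It stood at 9.99, 9.71 and 9.90 in the hypothalamus controls and 9.9994, 9.86 and 10.12 with TCDD, a log2 fold change of 0.13 ± 0.12 against 2.51 ± 0.12 in the pituitary (limma adjusted p for the difference = 2.75e-05). Bloc1s1, a subunit of a lysosome-positioning complex, had -0.08 against 1.42 (limma adjusted p = 0.00267). Alox15, a lipoxygenase, had -0.11 against 2.47 and Aldh1a1 -0.49 against 1.98. In these 4 the hypothalamus arrays of the groups overlapped.

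Slc40a1 had a negative value in the hypothalamus and a positive one in the pituitary, -0.65 ± 0.12 against 0.40 ± 0.12 (limma adjusted p for the difference = 0.0256). Neither value passed within its own tissue. On the positive side, Dapl1 had -0.23 against -1.89 and Lhb 0.05 against -1.81, the pituitary values having passed there. Lhb was dim in the hypothalamus, with means of 6.07 in the controls and 6.12 with TCDD, against 11.61 and 9.80 in the pituitary. Sdf2l1 had 0.26 against -0.67 and Tnnt3 0.39 against -0.52. In the hypothalamus controls Tnnt3 read 5.66, 5.68 and 5.71, near the median level of 5.62 for probes detected on exactly 3 arrays. Mlc1, an astrocyte membrane protein, had 0.38 ± 0.15 in the hypothalamus, with levels of 9.10, 9.30 and 9.48 against 9.59, 9.67 and 9.78. In the pituitary the Mlc1 probe was not detected on any TCDD array and was at least 1.55-fold lower there than in the controls (limma adjusted p = 0.0140). The unnamed ILMN_1357002 was not detected in either pituitary group, so its test of the difference sets a hypothalamic fall against 2 groups at background.

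**Figure D5:**
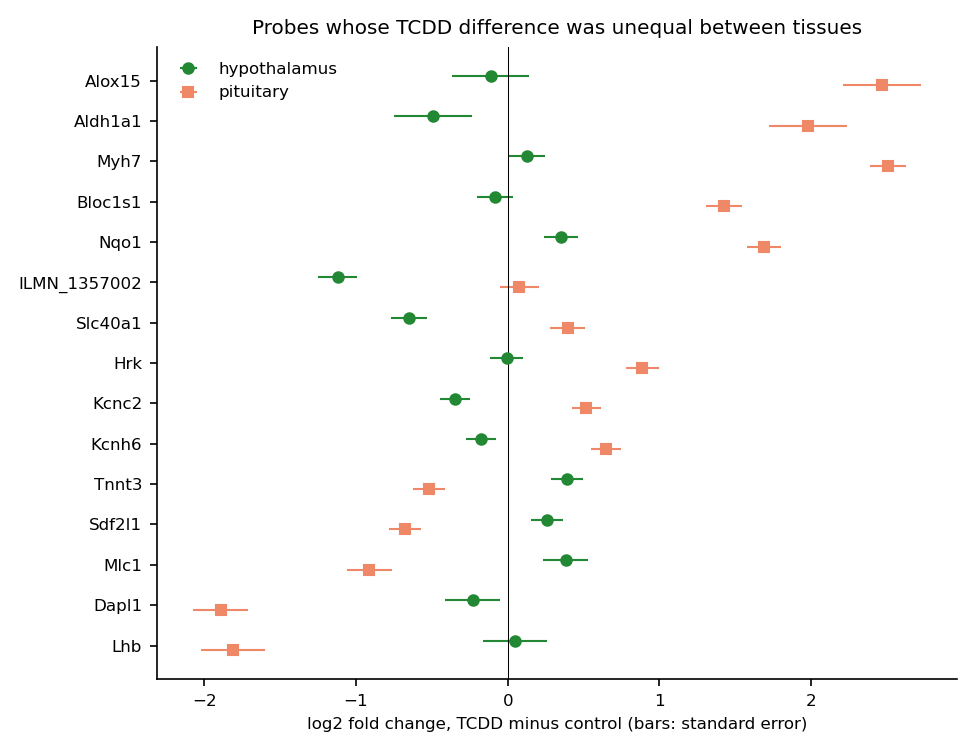
Log2 fold change (TCDD minus control) with its standard error in the hypothalamus (green circles) and pituitary (orange squares) for the 15 probes whose difference was unequal between tissues. The hypothalamus values lie between -1.12 and 0.39. ILMN_1357002 was not above background in either pituitary group and Mlc1 not in the TCDD pituitary.

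Finally, 15 of the 11363 probes were not detected on any control array and 37 not on any TCDD array. The folds these allow are small, the largest being at least 1.31-fold for Stk32b, named after its values were seen. At the limit of the detection rule, the 430 probes detected on exactly 3 arrays had a median log2 difference of -0.01 and the 530 detected on exactly 2, which were left out, one of -0.0032.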

How the data were processed

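Biotin-labelled cRNA made from 250 ng of total RNA was hybridised to 1-colour Illumina arrays, per the labels' protocols. The authors deposited 1 summarised bead intensity per probe and array, not normalized, with a detection p-value beside it, per the file headers. The authors also deposited a table of values that resemble log2 and share 1 distribution within each tissue (median 7.91 in the hypothalamus and 7.89 in the pituitary), without centring of genes. Its exact transform is unknown and it served as an alternative. The sources used here do not give the scanner software.

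The intensities of 12 arrays were background-corrected from the detection p-values and quantile-normalized with limma 3.58.1 (neqc, offset 16) in R 4.3.3, which returns log2 values. The offset pulls fold changes of dim probes towards 0. Probes detected (p below 0.05) on at least 3 of the 12 arrays were tested, 13018 in all. A limma model of 4 group means without covariates had 8 residual and 4.19 prior degrees of freedom, tests were two-sided, and p-values were adjusted by Benjamini-Hochberg over all tested probes. The fit was tested on simulated data first.

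Symbols came from the platform annotation, which names 1 gene for 13793 probes and none for 8730. A gene with several probes was represented by its brightest detected one. Groups were read from the sample labels. A fold against a group without detection is a bound, taken against the higher of the lowest detected signal and the probe's own on each array. Summed intensities are of normalized values on the linear scale. The 38 lists held 668 genes, 537 of them with a named probe and 397 detected. The members, lists and tests were chosen with earlier results of these data known. Named are all probes past the threshold, the 10 largest differences each way with groups apart and an unadjusted p below 0.05, a fixed set of AhR and hypothalamic genes, up to 3 members of smallest p per list, and up to 5 genes each way for the difference between tissues. Alternatives covered background, offset, scaling, filters, intensity trend, array weights, replicate blocks and each hypothalamus array left out. No pituitary array was left out.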

Additional observations from a re-analysis of the deposited data

Results flagged for a closer look

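For 15 probes the TCDD difference was unequal between hypothalamus and pituitary in the test of the difference itself (limma, adjusted p below 0.05). The value given is the log2 fold change in the hypothalamus minus that in the pituitary. It was -2.38 for Myh7, -1.51 for Bloc1s1, -1.34 for Nqo1, -2.58 for Alox15, -2.47 for Aldh1a1 and -1.05 for Slc40a1. For the potassium channel genes Kcnc2 and Kcnh6 it was -0.87 and -0.82, and for Hrk, a pro-apoptotic BH3 protein, -0.89. These 3 lie outside the naming rule and were named after their values were seen. The probes of Kcnc2 disagreed: the brightest one gave -0.52 with an adjusted p of 0.297, so the call rests on 1 of 3 detected probes. The unnamed ILMN_1357002 gave -1.20, against a pituitary signal at background. The positive values were 1.66 for Dapl1, 1.86 for Lhb, 0.93 for Sdf2l1, 1.29 for Mlc1 and 0.91 for Tnnt3. Lhb and Tnnt3 were dim in the hypothalamus, with control means of 6.07 and 5.68. The Mlc1 probe was not detected on any pituitary TCDD array, so its value there is at background and the size of 1.29 is not exact. Over 17 alternatives, Myh7 passed in 17, Nqo1, Bloc1s1 and Dapl1 in 16 each, Alox15 and Aldh1a1 in 15 each, and Tnnt3 in 5. No alternative turned the direction of any of the 15 differences, but none left out a pituitary array.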

How the results depend on the processing

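The 3 called probes depended on the processing. Their number was 3 with no detection filter, with only probes detected on at least 3 hypothalamus arrays, or with a random block by treatment and number, 2 with probes detected on all 6 arrays, an intensity trend or array weights, 1 with an offset of 50 or median scaling, and 0 with no background correction, the authors' processed values, the hypothalamus arrays alone, or a fixed replicate block. With the last 4 of these, 1354, 1290, 1070 and 1207 probes had an unadjusted p below 0.05. Leaving out 1 array gave 0 to 16 calls, the 0 coming with 915 and 929 probes at an unadjusted p below 0.05. The cause was not tested. The 16 probes called without control array 5 included all 3, and Tmx4, Sat1, Tceal8 and Tceal1 were lower and Agap3, Smarca4, Agap2, Nyap1, Akr1c12 and Cyp1b1 higher. Median scaling moved the median of all detected probes to -0.11.

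The 15 unequal differences came to 27 (authors' values), 23 (array weights) and 2 (fixed replicate block). Their number was 4 to 16 when 1 hypothalamus array was left out, and 14 to 19 otherwise. Numbers 1 and 3 occur in both hypothalamus groups, and the deviations of these pairs correlated at -0.07 and 0.11 across probes. With 2 such pairs and no label on dams or litters, whether the numbers pair the arrays was not settled.

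Of 111 named genes, 21 changed sign in at least 1 of 18 alternatives, most of them near 0. With the fixed replicate block Crh was -0.15, Avp -0.29, Th 0.17 and Npy 0.031. With median scaling Sst was -0.067, Avp -0.11, Myh7 -0.035 and Slc7a5 -0.090. With array weights Avp was -0.0080, Th 0.046 and Npy 0.015. Over the 6 fits that leave out 1 array the log2 fold changes were: Ahr -0.27 to 0.020, Gnrh1 -0.42 to 0.068, Tac3 -0.37 to 0.19, Pdyn -0.13 to 0.030, Crh -0.12 to 0.49, Trh -0.21 to 0.083, Ghrh -0.21 to 0.076, Avp -0.12 to 0.20, Oxt -0.019 to 0.27, Th -0.21 to 0.28, Pomc -0.12 to 0.098, Npy -0.25 to 0.068, Gal -0.023 to 0.23, Nts -0.35 to 0.15, Nkx2-1 -0.080 to 0.050, Lhb -0.11 to 0.18, Alox15 -0.25 to 0.021, Mrpl18 -2.40 to 0.13, Slc7a5 -0.033 to 0.15. Signal close to background limits named probes that were not detected on every hypothalamus array, among them the called ILMN_1357002 and Car4, Smad6, Dio3, Tshb, Aloxe3, Gdap1, Itgb1bp2, Mrap2 and Tm4sf1.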
